A study of Ovis aries with 9 samples.

Results

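Long non-coding RNA (lncRNA) fragments in ram sperm are the sequences that the deposited annotation assigns to lncRNAs and to no small nuclear or nucleolar RNA, tRNA, rRNA, miRNA, Y RNA or misc RNA. They numbered 89424 distinct sequences over the 3 libraries, of 3309646 distinct sequences in all. The CON library held 29613 of them with 64969 reads, the OVER library 39535 with 92803 reads and the RES library 35428 with 82817 reads. The rule uses the annotation alone and no read count.

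The sperm came from the semen of wild-type F1 rams. CON is the group labelled standard feeding, OVER the group labelled over feeding and RES the group labelled restricted feeding, a feeding which the series title places in the mothers' gestation. The sources used here do not give the age or breed of the rams, or whether semen was pooled. Before extraction, somatic cells in all groups were lysed with detergent.

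Each group has 3 samples by its labels, but the 3 tables of a group held the same sequences and the same read counts. For this reason each group stands for a single library, and no comparison has a replicate check or a test. The libraries held 9983895 (CON), 8287937 (OVER) and 13160116 (RES) reads of 15 to 42 nt, and 57.6 to 67.6% of them were annotated. All intervals are exact 95% intervals and cover counting error only. In these bulk samples fewer cells of a type and less RNA per cell cannot be told apart.

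A lncRNA is a long transcript with no known protein product. Many lncRNAs act at the gene from which they are made, on chromatin or as scaffolds for proteins, and their exons and introns often hold copies of retrotransposons, which in ruminants include the LINE element BovB and the tRNA-derived SINE elements named Bov-tA. Mature sperm makes little or no new RNA, and the long RNAs it carries are largely found in pieces. The files name the class lncRNA but no lncRNA gene and no position. Known lncRNAs such as MALAT1, NEAT1, H19 and XIST were therefore not looked up, and the label of the cells could not be checked on lncRNA markers. Overlapping fragments were grouped instead. Starting from the most abundant fragment, each seed took every free fragment that shared an exact stretch of 16 nt with it, and the 10 families with the highest summed abundance are described.

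The sequences below are the seeds of 8 of these families, shown because they carry the differences in length and abundance described further on. They are copied from the deposited tables, 5′ to 3′.
Family 1: caaactgtggaaaattctgaaag
Family 2: tcgtgtccgactctgtgcgac
Family 3: ctgggagggattgggggc
Family 6: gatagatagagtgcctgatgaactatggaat
Family 7: atgactactggaaaaaccatt
Family 8: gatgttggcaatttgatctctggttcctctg
Family 9: gcggcggcggcggcggcggcggcgg
Family 10: ccactgctgggcatacacaccgaggaaacc
Family 9 is a tandem repeat of a trinucleotide. From general knowledge, families 1, 3, 6, 7 and 8 carry letters of BovB and family 2 carries letters of Bov-tA. That reading was not checked against a library of repeats, and genome positions were not analysed here.

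The lncRNA class was small in all 3 libraries and took its largest share in OVER. Of the annotated reads, lncRNA fragments were 1.13% in CON (Clopper-Pearson interval 1.12 to 1.14%), 1.78% in OVER (1.77 to 1.79%) and 0.931% in RES (0.925 to 0.938%). In RPM, the reads scaled to 1000000 reads of the whole library, this was 6507, 11197 and 6293 in CON, OVER and RES. The OVER share was 1.58-fold the CON share and 1.91-fold the RES share, and the RES share was 0.824 times the CON share.

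The class was spread over a very large number of rare sequences. A fragment was read 2.19 times on average in CON, 2.35 times in OVER and 2.34 times in RES, and 65.6 to 69.8% of the fragments of a library were read once. The 10 most abundant fragments held 6.18, 5.88 and 5.01% of lncRNA reads in CON, OVER and RES. Of all members, 77700 (86.9%) were found in 1 library, 8296 in a pair of libraries and 3428 (3.83%) in all 3. Those 3428 carried 41.56 to 42.04% of the lncRNA reads of each library. Of all 3309646 distinct sequences, CON held 1311597, OVER 1296002 and RES 1249810, so low sharing was not particular to the lncRNA fragments. In each library 98.8 to 99.7% of the lncRNA reads matched the genome.

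Sequences that carry the term lncRNA together with another RNA class lie just outside the rule. They held 20308, 74507 and 22977 reads in CON, OVER and RES, most of them also annotated as small nuclear RNA (18440, 55541 and 15312 reads). The most abundant, atggatttttggagcag, had 277, 2273 and 253 RPM in CON, OVER and RES. Another, caataaactgtggaaaattctgaaag, ends in the same letters as the family 1 seed and had 407, 132 and 123 RPM in CON, OVER and RES.

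lncRNA fragments were shorter in OVER than in the other libraries. The commonest length was 15 nt in OVER, with 29.002% of lncRNA reads, and in RES, with 13.8%, and 26 nt in CON, with 9.10%. Their mean length was 24.8, 18.7 and 21.5 nt in CON, OVER and RES, against 28.6, 23.5 and 27.3 nt for all annotated reads. Fragments of 15 to 17 nt made up 13.5, 48.2 and 28.0% of lncRNA reads in CON, OVER and RES. Fragments of 26 to 32 nt made up 35.5, 5.28 and 18.6% in CON, OVER and RES. The range of 20 to 22 nt held 17.9%, 29.2% and 26.2%.

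**Figure D1:**
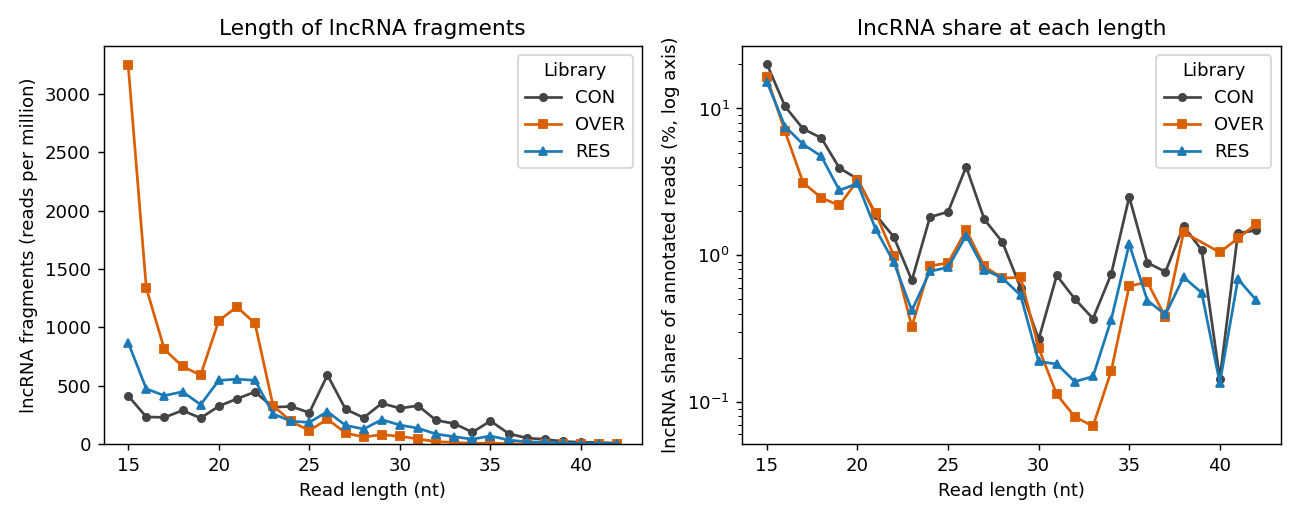
Left, lncRNA fragments in RPM (y axis) at each read length in nt (x axis), with 1 line per library. Right, the percent of annotated reads at each length that were lncRNA fragments, on a log axis. The OVER library is highest at 15 to 17 nt (5397 RPM in all, against 879 in CON and 1761 in RES), and CON is highest at 26 to 32 nt.

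Relative to all reads of the library, the short fragments were higher in OVER and the long ones lower. At 15 to 17 nt the class stood at 879, 5397 and 1761 RPM in CON, OVER and RES. At 20 to 22 nt it stood at 1162, 3269 and 1651 RPM. At 26 to 32 nt the order turned, with 2313, 591 and 1170 RPM in CON, OVER and RES, and at 33 to 42 nt the values were 730, 41.0 and 278 RPM. All annotated reads differed in length in the same direction: 15 to 17 nt held 1.30% of them in CON, 10.4% in OVER and 2.86% in RES.

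At equal length, lncRNA fragments took a smaller share of annotated reads in OVER and in RES than in CON. This held in each of the 6 length ranges that divide 15 to 42 nt, although at 21, 29, 40 and 42 nt taken singly the OVER share lay above the CON share. At 15 to 17 nt the share was 11.7, 8.29 and 9.11% in CON, OVER and RES. At 20 to 22 nt it was 1.81, 1.65 and 1.43%, at 26 to 32 nt 0.746, 0.410 and 0.360%, and at 33 to 42 nt 0.693, 0.136 and 0.332%. With the read lengths of OVER, CON would hold 2.75% lncRNA fragments, and the 1.78% measured in OVER was 0.648 times this. With the read lengths of RES, CON would hold 1.51%, and the RES value was 0.619 times this. RES at the OVER lengths would hold 1.94%, and the OVER value was 0.917 times this. The larger plain share in OVER than in CON was not seen in these length ranges. Against RES, OVER was still higher at 20 to 22 and at 26 to 32 nt.

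The first base of the fragments depended on their length. At 20 to 22 nt, 40.5% of lncRNA reads began with T in CON (39.6 to 41.4%), 47.0% in OVER (46.4 to 47.6%) and 37.9% in RES (37.3 to 38.6%). Counting each distinct sequence once, the values were 37.0, 40.7 and 37.1%, against 30.4, 31.6 and 29.9% of the other annotated sequences of that size. Such a count sets aside read number, but a family with many forms still counts many times. By reads, the other annotated sequences of that size began with T in 39.8, 34.0 and 37.3%. Among the distinct lncRNA fragments of 20 to 22 nt, 33.76, 32.98 and 33.03% had an A at base 10 in CON, OVER and RES, and so did 22.5, 22.8 and 22.9% of the other annotated sequences. A first T and an A at base 10 are the marks of piRNAs, small RNAs of the germ line that silence retrotransposons and are longer than this range.

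At 26 to 32 nt, the size of piRNAs, C was the commonest first base by reads in CON (40.4%) and OVER (46.3%) and T in RES (34.4%). By distinct sequences of this size, T began 31.5, 34.8 and 35.1% of the lncRNA fragments in CON, OVER and RES, against 23.4, 22.8 and 23.4% of the other annotated sequences. By reads, T began 27.6, 29.1 and 34.4% of the lncRNA fragments and 32.3, 10.1 and 19.9% of the others, so that in CON the order was the opposite. By distinct sequences an A at base 10 was found in 27.9, 27.2 and 28.5%. At 15 to 19 nt C was the commonest first base, with 47.1, 37.1 and 45.01% of lncRNA reads in CON, OVER and RES. G began 11.1 to 14.1% of lncRNA reads of all lengths and 27.3 to 44.1% of the other annotated reads. These shares are across sequences of 1 library each and share its depth.

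Abundant lncRNA fragments had many near-identical relatives. For each genome-matching sequence of 20 nt or longer with at least 100 and under 3000 reads in all, the genome-matching sequences that differed from it by 1 base were counted. The 95 lncRNA fragments had a median of 21 such relatives, with a range of 3 to 57. The median was 3 for Y RNAs, 4 for miRNAs, rRNAs and small nucleolar RNAs, 5 for nuclear tRNAs, mitochondrial tRNAs and misc RNAs, and 6 for small nuclear RNAs. It was 4 for 3633 sequences with no annotation. The ranges overlapped, with highest values of 71 for small nuclear RNAs, 60 for sequences with no annotation and 48 for misc RNAs. Fragments of the same family can count each other as relatives, so the 95 are not independent. The median read number was 182 for the lncRNA fragments and 173 to 296 for the other classes. A sequence holding an unread base, N, also carried the genome flag, so the flag need not mean an exact match. Whether a relative is a further genome copy or a read error was not tested.

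**Figure D2:**
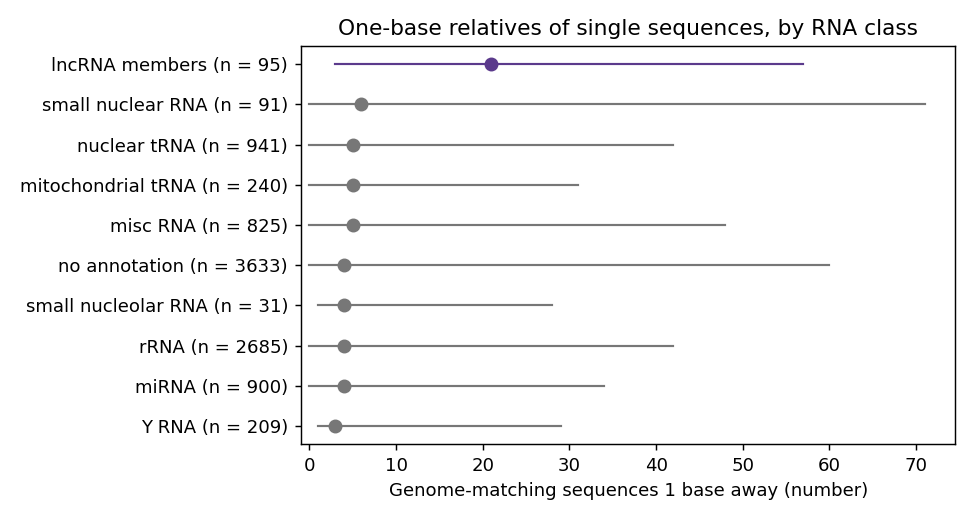
Number of genome-matching sequences that differ by 1 base from a sequence of 20 nt or longer with 100 or more and under 3000 reads (x axis), by RNA class with the number of sequences (y axis). Points are medians and lines run from the lowest to the highest sequence; the lncRNA median is 21 and the others lie between 3 and 6.

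The rule itself leaves out sequences that also carry another class, so little overlap with those classes could remain. Stretches of 16 nt found in an abundant sequence of the other named classes without the term lncRNA occurred in 3, 12 and 23 lncRNA reads in CON, OVER and RES. A stretch of a sequence that carries lncRNA and another class was held by 15.5, 4.03 and 5.74% of lncRNA reads in CON, OVER and RES, the family 1 seed among them.

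The 10 leading families held 30.3, 13.7 and 17.9% of lncRNA reads in CON, OVER and RES. In all, 22743 families were formed, 16572 of them of 1 sequence, and 17993 members of 15 nt were too short to join one. Families 1, 6, 8 and 10, whose CON reads were mostly 25 nt or longer, were lower in OVER and in RES than in CON. Families 2 and 9 also had most of their CON reads at 25 nt or longer, but family 2 was higher in OVER and family 9 was not lower in RES. Families 4, 5 and 7, made of shorter fragments, were higher in OVER. Differences of 2-fold or more between libraries were common among all sequences, as the shares given with the single fragments show.

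**Figure D3:**
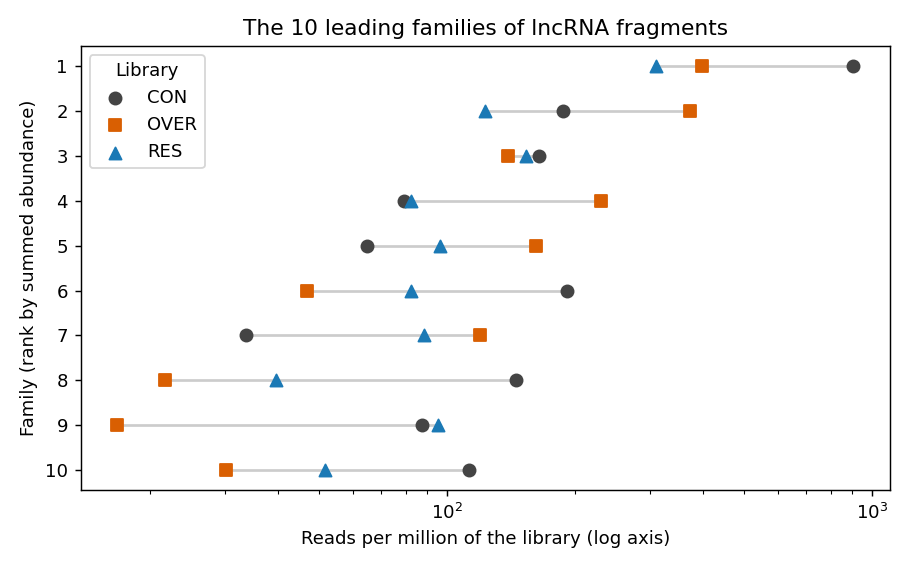
RPM of each library (x axis, log) of the 10 leading families of overlapping lncRNA fragments (y axis), with a marker per library and a grey line over their range. Family 1 is highest in CON (903 RPM), families 2, 4, 5 and 7 are highest in OVER, and families 6, 8 and 10 are lowest in OVER.

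Family 1 was the largest and was highest in CON. It stood at 903, 398 and 311 RPM in CON, OVER and RES, from 9020, 3302 and 4090 reads of 2522 distinct sequences. It was 2.27-fold lower in OVER than in CON (log2 ratio -1.18, interval -1.24 to -1.12) and 2.91-fold lower in RES (-1.54, -1.59 to -1.49). The difference in OVER was under 2-fold with TMM scaling (-0.99) and with DESeq2 size factors (-0.90). Both comparisons use the same CON library.

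Its fragments shared their 3′ end and differed at the 5′ end. Of the family 1 reads, 61.6% ended in the same 8 bases, while the commonest 8 bases at the start were found in 12.3%. Of all reads that ended in the last 16 bases of the seed, lncRNA fragments held 40.4, 38.8 and 40.2% in CON, OVER and RES. Sequences left out by the rule held 55.7, 58.8 and 56.0%, so most reads with this end lie outside the family. The 4 most abundant members with that end are shown, with the last 16 bases in capitals.
Form a: caaactgTGGAAAATTCTGAAAG
Form b: caagaaactgTGGAAAATTCTGAAAG
Form c: caatcaactgTGGAAAATTCTGAAAG
Form d: caacaaactgTGGAAAATTCTGAAAG
Form a, of 23 nt, had 39.0, 35.6 and 14.4 RPM in CON, OVER and RES. Forms b, c and d, of 26 nt, had 45.5, 29.4 and 26.1 RPM in CON, 16.5, 12.8 and 9.05 RPM in OVER, and 16.3, 8.05 and 8.97 RPM in RES. The shorter form thus lay close to CON in OVER (log2 ratio -0.13, -0.35 to 0.09) and the longer form b did not (-1.46, -1.75 to -1.18). Over the whole family, fragments under 25 nt stood at 273, 238 and 110 RPM in CON, OVER and RES, and those of 25 nt or longer at 631, 160 and 201 RPM.

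Family 2 had the opposite shape, with a fixed 5′ end. The same 8 bases began 88.3% of its reads, and the commonest last 8 bases were found in 20.4%. It stood at 187, 372 and 123 RPM in CON, OVER and RES, which is 1.99-fold higher in OVER than in CON (log2 ratio 0.99, 0.91 to 1.08) and 1.52-fold lower in RES (-0.60, -0.70 to -0.51). In OVER the log2 ratio was 1.19 with TMM scaling and 0.21 with the class total. The main forms that begin with the first 18 bases of the seed are shown with the bases after this start in capitals.
Form of 20 nt: tcgtgtccgactctgtgcGA
Form of 21 nt: tcgtgtccgactctgtgcGAC
Form of 22 nt: tcgtgtccgactctgtgcGACC
Form of 29 nt: tcgtgtccgactctgtgcGACCCCATAGA
The 21 nt form had 17.7, 100.4 and 9.57 RPM in CON, OVER and RES. The 29 nt form had 43.5, 9.77 and 17.02 RPM in CON, OVER and RES. The same start was thus found mostly with the short end in OVER and with both ends in CON and RES.

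Over all lncRNA reads with this start, 20 to 22 nt made up 37.9% in CON (35.4 to 40.3%), 87.2% in OVER (85.8 to 88.4%) and 42.04% in RES (39.2 to 44.9%). Reads of 29 nt made up 44.6% in CON (42.1 to 47.2%), 4.59% in OVER (3.81 to 5.47%) and 36.0% in RES (33.3 to 38.8%). The start itself had 153, 310 and 91.1 RPM in CON, OVER and RES.

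**Figure D4:**
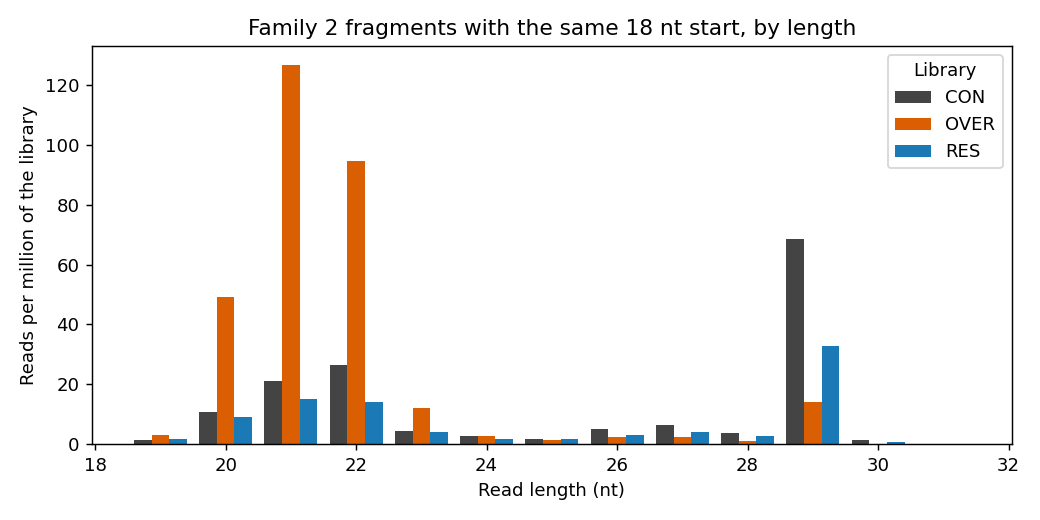
RPM of each library (y axis) of lncRNA fragments that share the first 18 bases of family 2, by read length in nt (x axis), with 1 bar per library. OVER reads gather at 20 to 22 nt (271 RPM, against 58.1 in CON and 38.3 in RES), and CON and RES also show a second group at 29 nt.

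The seeds of families 3, 4 and 5 are forms of 1 sequence of 18 nt that differ at base 14, counted from the 5′ end of the family 3 seed. The differing base is in capitals.
Family 3 seed: ctgggagggattgggggc
Family 4 seed, G14T: ctgggagggattgTgggc
Family 5 seed, G14A: ctgggagggattgAgggc
The family 3 seed had 37.8, 45.4 and 48.4 RPM in CON, OVER and RES. The G14T form had 40.3, 96.5 and 41.8 RPM, and the G14A form 31.7, 83.7 and 48.0 RPM. Of the reads of these 3 forms, the seed of family 3 took 34.4% in CON (31.6 to 37.3%), 20.1% in OVER (18.312 to 21.997%) and 35.0% in RES (32.8 to 37.3%). The G14T form took 36.7% in CON (33.9 to 39.6%), 42.8% in OVER (40.5 to 45.1%) and 30.2% in RES (28.1 to 32.4%). The G14A form took 28.9% in CON (26.2 to 31.6%), 37.1% in OVER (34.9 to 39.3%) and 34.7% in RES (32.6 to 36.98%). The 3 shares of a library add up to the whole, so they are not separate results, and their intervals cover counting error only. Among all sequences compared, 69.2% were at least 2-fold apart between OVER and CON and 63.2% between OVER and RES.

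The whole families 4 and 5 were 2.90-fold and 2.50-fold higher in OVER than in CON (log2 ratios 1.54 and 1.32), and under 2-fold higher with the lncRNA class total as the scale (0.75 and 0.54). In RES, family 4 lay close to CON (0.05, -0.08 to 0.19, and -0.18 with TMM scaling) and family 5 was 1.49-fold higher (0.58, 0.44 to 0.71). For family 3 the log2 ratio against CON was -0.10 in RES. In OVER it depended on the scale, with -0.24 by all reads, 0.04 with DESeq2 size factors and -1.02 with the class total. Family 3 also mixed lengths, with 36.1% of its CON reads at 25 nt or longer. Its fragments under 25 nt stood at 105, 138 and 135 RPM in CON, OVER and RES. Those of 25 nt or longer stood at 59.3, 1.57 and 17.9 RPM. A related 18 nt fragment, ctgggagggactgagggc, went another way, with 10.2, 4.83 and 20.3 RPM in CON, OVER and RES.

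Family 7 was higher in both diet groups than in CON. It stood at 33.8, 120 and 88.4 RPM in CON, OVER and RES, 3.54-fold higher in OVER (log2 ratio 1.82, 1.64 to 2.01) and 2.62-fold higher in RES (1.39, 1.21 to 1.57). Its mean length differed little, from 20.4 to 20.7 nt, and 92.1% of its reads began with the same 8 bases. Its seed of 21 nt had 16.3, 64.6 and 46.2 RPM in CON, OVER and RES.

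Families 6, 8 and 10 were long fragments and were lowest in OVER. Family 6 had 191, 46.8 and 82.4 RPM in CON, OVER and RES. Family 8 had 145, 21.7 and 39.7 RPM, and was 6.69-fold lower in OVER (log2 ratio -2.74, -2.97 to -2.52) and 3.66-fold lower in RES (-1.87, -2.02 to -1.73). Family 10 had 113, 30.2 and 51.5 RPM, and 92.4% of its reads ended in the same 8 bases. In CON 96.8 to 97.3% of the reads of these families were 25 nt or longer. The seed of family 8, of 31 nt, was the most abundant single lncRNA fragment in CON, with 63.6 RPM there, 6.03 RPM in OVER and 17.2 RPM in RES.

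Family 9, the trinucleotide repeat, was lower in OVER than in CON and lay near CON in RES. It had 87.2 RPM in CON, 16.8 RPM in OVER (5.20-fold lower, log2 ratio -2.38, -2.65 to -2.12) and 95.4 RPM in RES (log2 ratio 0.13, and -0.10 with TMM scaling). Its mean length was 25.6, 24.8 and 25.2 nt in CON, OVER and RES.

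Single fragments were compared where they had at least 100 reads in the 2 libraries together. For OVER against CON, 110 of 63843 fragments did, and they held 16.7% of the CON and 17.7% of the OVER lncRNA reads. Of the 110, 67 had an OVER value at or above 2-fold the CON value and 27 lay as far below it. Among all 9319 sequences compared in the same way, 34.5% were that much higher and 34.7% lower, 69.2% in either direction. The median log2 ratio was 1.67 for the fragments and -0.08 for all sequences. With the lncRNA class total as the scale, the split was 53 higher and 33 lower.

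The direction followed the length of the fragment. All 24 fragments of 25 nt or longer were at least 2-fold lower in OVER, with a median log2 ratio of -2.30, while 60.6% of all sequences of that length were at least 2-fold lower. Scaled to reads of 25 nt and longer, 13 of the 24 were at least 2-fold lower and 0 higher. The share of all sequences that were lower on this scale was not computed, so these counts have no background. The 24 fragments come from 9 families, 7 of them from family 1, and are not independent. Of the 45 fragments of 15 to 19 nt, 38 were at least 2-fold higher and 1 lower, with 84.1% of all sequences of that length higher. Of the 33 fragments of 20 to 22 nt, 28 were higher and 1 lower, with 60.6% of all sequences of that length higher. The part of read length in these differences was not tested further.

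**Figure D5:**
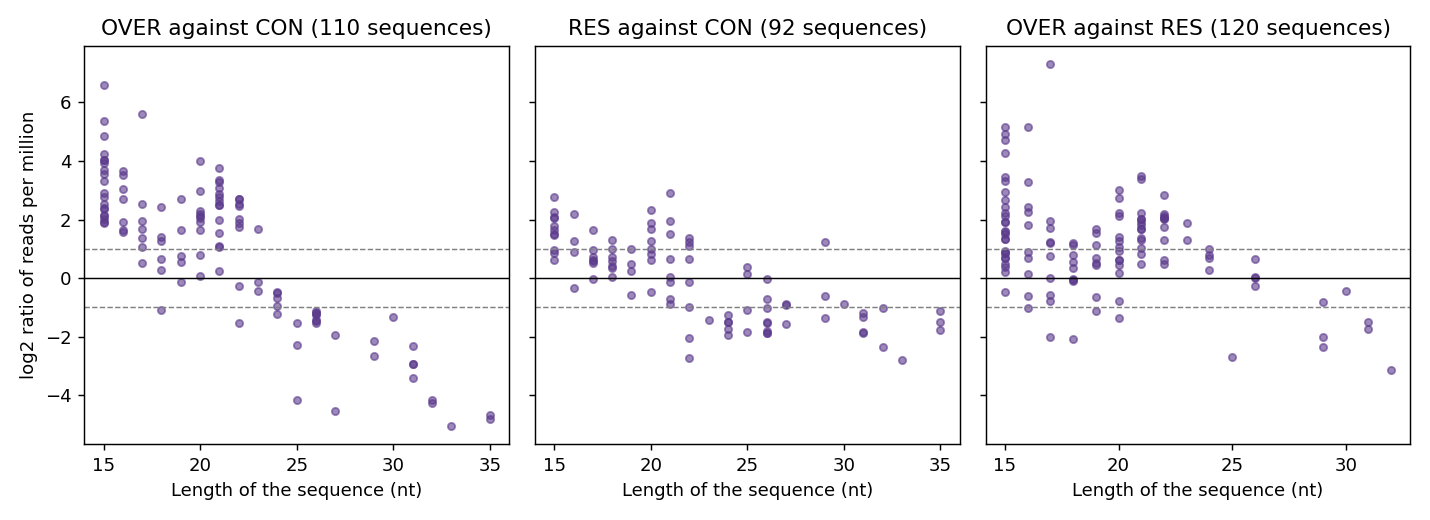
log2 ratio of RPM (y axis) against the length of the fragment in nt (x axis) for lncRNA fragments with at least 100 reads in the 2 libraries, with 110, 92 and 120 points in the 3 comparisons. Dashed lines mark 2-fold. In OVER against CON every fragment of 25 nt or longer lies below the lower line, and most of these passed the minimum on CON reads alone.

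The fragments with the highest OVER against CON ratios were 15 to 17 nt long. They were picked by ratio and met the minimum almost wholly by OVER reads, so their few CON reads are no separate result. The lowest fragments were picked and admitted through CON in the same way. Intervals of picked fragments do not allow for this choice, here or in the other comparisons. ctgggttcagaacgt had 2, 159 and 13 reads in CON, OVER and RES (log2 ratio 6.58 against CON, 4.70 to 9.64). ctgtgtcgcagactgag had 5, 200 and 2 reads (5.59, 4.34 to 7.23), and cgcggggtggagcag had 5, 172 and 59 reads (5.37, 4.12 to 7.01). Sequences as short as 15 nt can match many places in a genome, so their source is less certain than that of longer fragments. The lowest in OVER was a longer form of family 8, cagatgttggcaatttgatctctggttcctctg, with 120, 3 and 23 reads in CON, OVER and RES (log2 ratio -5.05, -7.35 to -3.47). Other low fragments were 35 nt forms of family 1, such as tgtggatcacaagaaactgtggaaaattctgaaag with 124, 4 and 58 reads.

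RES differed from CON in fewer fragments than OVER did by count. Of 92 fragments compared, out of 58716, 24 were at least 2-fold higher in RES and 28 at least 2-fold lower, against 26.8% higher and 13.9% lower of all 11737 sequences, 40.7% in either direction. With edgeR's TMM scaling the split was 21 higher and 33 lower. Of the 29 fragments of 25 nt or longer, 20 were at least 2-fold lower and 1 higher. Of all sequences of that length, 18.2% were lower and 17.6% higher. The 29 fragments come from 9 families, with 8 of the fragments from family 1, and are not independent. Scaled to reads of 25 nt and longer, 15 were lower and 1 higher, with no share of all sequences computed on this scale. All 6 fragments of 23 to 24 nt were at least 2-fold lower, but they are overlapping forms of family 1 and so count 1 source 6 times. Of all sequences of that length, 11.9% were lower and 30.4% higher. Shorter fragments went the other way, as did all sequences of those lengths. At 15 to 19 nt 12 of 33 (36.4%) were higher and 0 lower, against 60.7% higher and 1.63% lower of all sequences. At 20 to 22 nt 11 of 24 (45.8%) were higher and 2 lower, against 39.7% higher and 5.96% lower of all sequences.

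Among the highest in RES were aaggactgatgctaaagcttt of 21 nt, with 11, 123 and 109 reads in CON, OVER and RES (log2 ratio 2.91 in RES against CON, 2.01 to 3.95), and the guanine-rich cggggtggggcgggc, with 14, 58 and 127 reads (2.78, 1.98 to 3.69). The 20 nt fragment atgaaactggagccgattat had 19, 31 and 127 reads and was 5.07-fold higher in RES than in CON. The lowest were the 33 nt form of family 8 (-2.78, -3.49 to -2.13) and the 22 nt fragment tcggatgctgggagggattggg, with 101, 29 and 20 reads (-2.73, -3.51 to -2.03).

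Between the diet groups, OVER held more of most compared fragments. Of 120 fragments, out of 68013, 63 were at least 2-fold higher in OVER than in RES and 11 at least 2-fold lower, against 25.4% and 37.8% of all 11256 sequences, 63.2% in either direction. With the lncRNA class total as the scale the split was 36 higher and 20 lower. The excess over all sequences depended on length. At 15 to 19 nt 51.6% of 64 fragments were at least 2-fold higher, against 57.9% of all sequences of that length. At 20 to 22 nt 71.1% of 38, from 25 families, were higher, against 37.5%. At 23 to 24 nt 3 of 6 were higher, against 22.7%. At 25 nt or longer 0 of 12 were higher and 6 lower, against 8.07% and 60.4% of all sequences. The 21 nt form of family 2 was 10.5-fold higher in OVER than in RES. The highest ratio was that of ctgtgtcgcagactgag (log2 ratio 7.31), and the lowest was that of a 32 nt form of family 6, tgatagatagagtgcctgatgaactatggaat, with 7 reads in OVER and 98 in RES (-3.14).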

How the data were processed

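Per the labels' protocols, RNA of 15 to 50 nt was selected, prepared with a NEBNext kit and sequenced on an Illumina NovaSeq. The authors deposited read counts per distinct sequence with no normalization, and per the file headers each row also gives length, a genome match and annotation terms. The submitters' processing notes name edgeR; for the aligner, annotation tool and genome build, nothing is stated in the labels or headers. The 9 tables reduce to 3 libraries, since sequences, counts and genome flags were the same within a group (annotation terms differed in 0 to 3 sequences, none affecting a member), so the planned edgeR quasi-likelihood and permutation tests were not run.

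Reads were scaled to all reads of a library (RPM). Intervals of shares are Clopper-Pearson, while log2 ratios carry an exact binomial interval on both counts, with 0 set to 3 reads (0.300 RPM in CON, 0.362 in OVER, 0.228 in RES). Fragments named are the 8 highest per library and the 5 highest and 5 lowest ratios per comparison among genome-matching members with at least 100 reads; the text gives a part of them. The left-out sequences, the forms of families 1 and 2, and the first-base, 1-base-relative, tandem-repeat and reverse-complement counts were chosen after values were seen. Members and lists were chosen with earlier results of these data known. Alternatives were edgeR TMM and DESeq2 size factors, the lncRNA class total, other read minimums, members by term, genome match or length, and stretches of 14 and 20 nt. The ratio calculation was tested on simulated data. Python 3.11.15, R 4.3.3, edgeR 4.0.16 and DESeq2 1.42.0 were used.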

Additional observations from a re-analysis of the deposited data

How the results depend on the processing

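No paired analysis was possible because the 3 tables of a group are identical, which also left nothing to change by leaving out a replicate. With all reads as the denominator the lncRNA share was 0.651, 1.12 and 0.629% in CON, OVER and RES. With genome-matching members only it was 1.119% in CON and 0.920% in RES, and in reads of 25 nt and longer 0.772, 0.399 and 0.379% in CON, OVER and RES, where OVER no longer exceeds CON. The number of fragments at least 2-fold apart was 94 of 110 for OVER against CON, 52 of 92 for RES against CON and 74 of 120 for OVER against RES. With at least 50 reads it was 197 of 229, 119 of 211 and 170 of 265. With at least 200 reads it was 37 of 42, 18 of 33 and 34 of 55. In members of 25 nt and longer, scaled to reads of that length, it was 13 of 24, 16 of 29 and 6 of 12. For these alternatives the share of all sequences was not computed. Without a filter it was 47518, 41896 and 29847, numbers set largely by the 3 reads that stand for 0. For OVER against RES the split was 81 higher and 8 lower with TMM and 84 and 7 with DESeq2 size factors. The median of all compared sequences was -0.39 there, 0.03 with TMM, 0.13 with DESeq2 size factors and -1.22 with the class total. For OVER against CON it was -0.08, 0.12, 0.20 and -0.86, and for RES against CON 0.20, -0.03, -0.04 and 0.25. No family or named fragment that was at least 2-fold apart changed direction under the 3 other scalings. Of 16 family ratios at least 2-fold apart, 1 fell under 2-fold with TMM, 1 with DESeq2 size factors and 4 with the class total, and of 82 ratios of named fragments 4, 7 and 12 did. The families were family 1 for OVER against CON with TMM (-0.99) and DESeq2 size factors (-0.90), and with the class total families 4 (0.75) and 5 (0.54) for OVER against CON and families 2 (0.77) and 4 (0.65) for OVER against RES. The 10 leading families held 31.2, 15.6 and 19.8% of lncRNA reads in CON, OVER and RES with stretches of 14 nt and 24.2, 7.37 and 10.8% with 20 nt. Stretches of other classes were found in 1.45, 0.413 and 1.88% of lncRNA reads at 14 nt and in 0.0% at 20 nt. Counting distinct sequences, an alternative chosen after seeing the data, the mean length was 24.9, 18.6 and 22.1 nt and the share beginning with T was 31.0, 30.3 and 31.1%. Most fragments were read once, and such fragments cannot be compared singly at this depth.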

Other observations

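Tandem repeats, sequences in which at least 90% of bases recur at a distance of 1 to 6 bases, made up 2.80, 0.816 and 3.38% of lncRNA reads in CON, OVER and RES (intervals 2.67 to 2.92, 0.759 to 0.876 and 3.26 to 3.50%). In RPM they stood at 182, 91.3 and 213. They were shorter in OVER, with a mean length of 24.1, 18.8 and 21.9 nt in CON, OVER and RES. A long form, gaggaggaggaggaggaggaggaggag, had 112, 4 and 50 reads in CON, OVER and RES, and a short guanine- and cytosine-rich form, gcgggcgggcgggcgg, had 38, 94 and 228.

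Some lncRNA fragments shared a stretch with the reverse complement of lncRNA fragments. A stretch of 16 nt that is the reverse complement of a lncRNA fragment with at least 10 reads occurred in 12.4, 9.40 and 9.43% of lncRNA reads in CON, OVER and RES. With a stretch of 20 nt the values were 4.17, 1.85 and 2.85%. Whether both strands of a single sequence were read was not tested, since genome positions were not analysed. The G and C content of lncRNA reads was 50.8, 53.6 and 55.3% in CON, OVER and RES, against 53.3, 51.8 and 52.0% for all annotated reads.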
